A study of Mus musculus with 3 samples.

Results

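The upper and the lower small intestinal epithelium of mice were compared gene by gene, with 1 RNA sequencing library for each region. Epithelial cells had been released from opened, washed intestines by shaking for 20 min at 37 °C in buffer with 5 mM EDTA, and the labels describe no sorting of the cells. The sample names carry the letters SPFm, and no genotype, age or treatment is labelled for either small intestinal library. A strain entry stands on the upper library alone and names MC38, a colorectal cancer model, so if that entry holds, region and strain cannot be told apart. The third library of the study, from large intestinal epithelium and equally without genotype, age or treatment, is given beside the other values and was not part of the comparison. How many animals stand behind a library is not in the labels. The question behind the comparison is which genes differ along the length of the small intestine.

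The unit of all levels is FPKM, fragments per kilobase of transcript scaled to library size. Of 24346 gene names, 1289 that belong to short RNA classes (microRNA, snoRNA and similar) were set aside, and 11862 of the remaining 23057 reached 1 FPKM in the upper or the lower library. These 11862 genes are called measured. A difference is the upper minus the lower value of log2(FPKM + 1), so a positive number means higher in the upper library, and the scale understates differences of low genes. A gene is called higher in a library at a difference of at least 1, which is 2-fold on that scale. There is no p-value, SD or standard error, because there is 1 library a side. Where the spacing of low FPKM values gave the reads behind a level, a 95% Clopper-Pearson interval is given for the ratio, which covers counting error only. These implied reads were reckoned on the shortest annotated transcript of a gene. Longer transcripts would mean more reads and a narrower interval. By that spacing, a 2 kb transcript at 1 FPKM had about 21.7 reads in the lower library and 14.7 in the upper.

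The small intestine absorbs most nutrients at its upper end, where pancreatic juice and bile enter, and recovers bile acids and cobalamin at its lower end. Its epithelium is a single layer of enterocytes with a brush border of digestive enzymes and transporters. Scattered among them are mucus-secreting goblet cells, hormone-secreting enteroendocrine cells and tuft cells, and at the crypt base Paneth cells release antimicrobial peptides. Regional identity is known to be held by transcription factors such as Gata4 in the upper part, while bacterial density rises towards the lower end.

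Most genes were at much the same level in both libraries, and genes of nutrient handling, xenobiotic metabolism and defence were among those furthest apart. Of the measured genes, 762 (6.42%) were 2-fold or more apart. In the upper library 451 genes were higher (3.8% of those measured), and in the lower library 311 (2.62%). Counts of called genes in the lists and families below are to be read against these shares. The median difference was -0.03, the quartiles were -0.22 and 0.20, and 9527 genes (80.3%) lay within 0.5 log2 units. The tail was longer on the upper side, with 120 genes at 4-fold or more (a difference of 2) against 64 in the lower library. At a difference of 4 or more the sides were nearly even, with 11 genes in the upper library and 9 in the lower. Abundant genes leaned to the upper library: among 1019 genes at 100 FPKM or more in the higher library, 101 were higher in upper and 40 in lower. Among 5127 genes between 1 and 10 FPKM the counts were 146 in upper and 163 in lower.

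**Figure D1:**
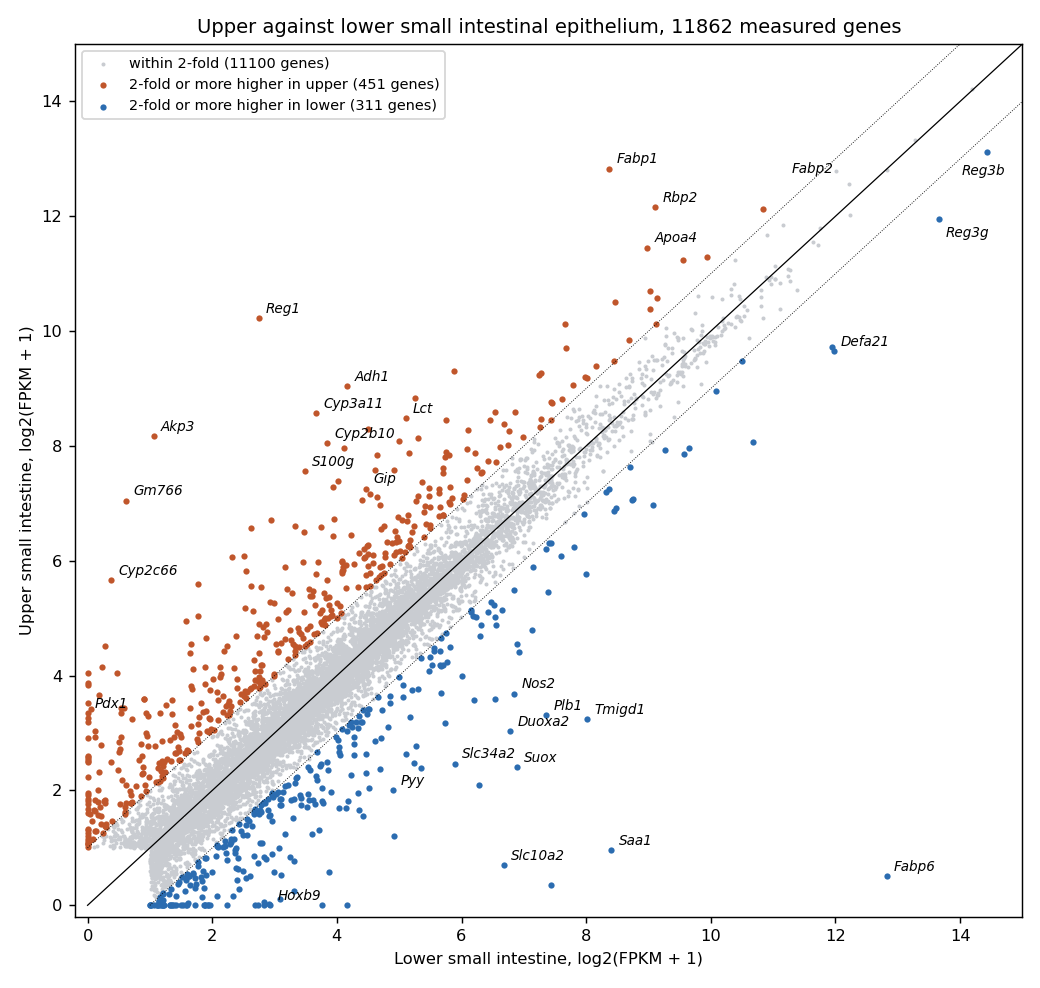
Level of each measured gene in the lower (x axis) and upper (y axis) small intestinal library, both as log2(FPKM + 1); 1 point is 1 gene, the solid line marks equal levels and dotted lines a 2-fold difference. Most points lie along the solid line, with 451 genes above the upper dotted line and 311 below the lower one, Fabp6 and Saa1 being far to the lower side and Reg1 and Akp3 far to the upper side.

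Bile acid genes were among those furthest to the lower side, and digestive and fat-carrying genes among those furthest to the upper side. Fabp6, the cytosolic bile acid carrier of the ileum, stood at 7245 FPKM in the lower library, 0.416 in the upper and 38.3 in the large intestine. About 1 implied read lay behind the upper value, on the shortest transcript of 479 nt, so the ratio of 17416 has a counting interval from 4580 to 1007927. Slc10a2, the apical sodium-dependent bile acid transporter, was at 102 FPKM in lower, 0.618 in upper and 24.2 in large, a ratio of 165 (counting interval 105 to 272). In the opposite direction Fabp1, the liver-type fatty acid carrier, was at 7255 FPKM in upper, 329.8 in lower and 1.15 in large, a ratio with a counting interval of 21.02 to 23.04. The third of these carriers, Fabp2, was at 6064 in upper and 4757 in lower. Summed over Fabp1, Fabp2 and Fabp6, the libraries were close, at 13320 FPKM in upper and 12332 in lower. Lct, the lactase of the brush border, was at 356 FPKM in upper and 33.4 in lower (ratio 10.7, 9.27 to 12.3). Cyp3a11, a broad-substrate cytochrome P450, was at 379.5 in upper and 11.8 in lower (ratio 32.3, 28.8 to 36.4).

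The sequences upstream of 4 of these genes are shown because their levels set the regions apart. They were chosen after the values were seen. Each is the stretch of 250 bases before the gene's RefSeq start in GRCm38.p6, read 5′ to 3′ on the gene's strand. Capitals mark 3 letter strings on either strand: AGATAA, a core that GATA factors bind, CAAAGTCCA, a site of HNF4 factors, and TATAAA, the TATA box.
Lct (356 FPKM upper, 33.4 lower; chr1:128328319-128328568, minus strand): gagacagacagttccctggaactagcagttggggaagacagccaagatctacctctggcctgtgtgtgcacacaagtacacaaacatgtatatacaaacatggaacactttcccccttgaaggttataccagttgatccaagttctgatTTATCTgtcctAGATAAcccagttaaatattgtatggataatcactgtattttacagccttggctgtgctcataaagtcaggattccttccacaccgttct
Fabp1 (7255 FPKM upper, 329.8 lower; chr6:71199629-71199878, plus strand): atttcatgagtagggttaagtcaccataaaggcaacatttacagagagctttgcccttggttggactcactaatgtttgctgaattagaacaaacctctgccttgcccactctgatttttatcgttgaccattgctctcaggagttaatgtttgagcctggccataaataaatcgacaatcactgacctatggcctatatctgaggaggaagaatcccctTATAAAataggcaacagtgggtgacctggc
Cyp3a11 (379.5 FPKM upper, 11.8 lower; chr5:145879855-145880104, minus strand): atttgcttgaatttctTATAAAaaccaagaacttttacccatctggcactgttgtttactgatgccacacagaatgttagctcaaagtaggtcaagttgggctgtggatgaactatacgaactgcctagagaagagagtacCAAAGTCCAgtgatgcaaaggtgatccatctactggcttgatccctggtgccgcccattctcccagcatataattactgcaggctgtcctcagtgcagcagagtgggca
Fabp6 (0.416 FPKM upper, 7245 lower; chr11:43601563-43601812, minus strand): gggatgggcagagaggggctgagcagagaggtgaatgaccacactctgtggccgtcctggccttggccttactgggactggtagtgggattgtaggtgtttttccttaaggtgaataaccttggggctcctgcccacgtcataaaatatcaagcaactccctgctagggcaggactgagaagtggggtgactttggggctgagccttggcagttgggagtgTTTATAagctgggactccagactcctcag
Lct held AGATAA once on each strand, with first bases 101 and 90 bases before the start. Fabp1 held TATAAA at 30 bases before its start. Cyp3a11 held CAAAGTCCA at 109 bases and Fabp6 the TATA box, as TTTATA, at 29 bases before the start. The remaining match was TATAAA in Cyp3a11 at 234 bases. A match describes the letters only and no match says nothing about the factor.

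Across all measured genes, 9069 (76.5%) had a RefSeq window from 250 bases before to 50 after the start. AGATAA was in 6.90% of these windows, in 15.6% of the 359 windows of genes higher in upper and in 9.76% of the 205 of genes higher in lower. For genes 4-fold or more apart the shares were 23.96% of 96 in upper and 10.6% of 47 in lower. TGATAA, another GATA string, was in 4.51% of all windows, 11.4% for genes higher in upper and 12.2% for genes higher in lower. At 4-fold or more its shares were 13.5% in upper and 17.02% in lower. CAAAGTCCA was in 0.463% of all windows, 2.23% (8 genes) for genes higher in upper and 0% for genes higher in lower. The TATA box was more frequent on both sides, in 7.38% of all windows, 19.8% for genes higher in upper and 16.1% for genes higher in lower. Base composition moved with these shares, the median AT content being 39.3% over all windows, 44.7% for genes higher in upper and 44.3% for genes higher in lower. Its part in the shares was not tested. Of 20 strings searched on both strands, these 4 were picked for description after their shares were seen, and TATAAA can overlap AGATAA by its letters.

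Of 18 measured proximal regulators, 4 were higher in the upper library (22.2%, against 3.8% of all measured genes). In the lower library 1 was higher, and the list's median difference was 0.04. Gata4, the zinc finger factor of proximal identity, was at 58.3 FPKM in upper, 16.1 in lower and 0.137 in large (ratio 3.63, 2.87 to 4.58). Onecut2, a homeodomain factor of the duodenum, was at 11.6 in upper and 0.134 in lower, and Pdx1, which marks the duodenum and pancreas, was at 9.19 in upper and listed at 0 in lower. Creb3l3, a membrane-bound factor of lipid metabolism, was at 155 in upper and 55.2 in lower. Foxa1 went the other way, at 5.39 in upper and 15.5 in lower. The broad gut regulators were near equal, with Hnf4a at 192 in upper and 231 in lower, Gata6 at 36.2 in upper and 21.8 in lower, and Gata5 at 22.4 in upper and 28.4 in lower. Hnf4g lay just under 2-fold at 152 in upper and 78.1 in lower.

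Of 13 measured distal regulators, 3 were higher in the lower library (23.1%, against 2.62% of all measured genes). None was higher in the upper library, and the median difference was -0.38. Nr1h4, the bile acid receptor FXR, was at 63.1 FPKM in lower, 14.9 in upper and 39.9 in large (lower to upper ratio 4.23, 3.67 to 4.92). Osr2, a zinc finger factor, was at 85.3 in lower and 33.4 in upper. Cdx1 was at 100.3 in lower and 62.7 in upper, and Cdx2, the intestinal master regulator, at 100.2 in lower and 81.4 in upper.

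Of 36 Hox genes, which set position along the body axis, 7 were measured, from Hoxb3 to Hoxb9. All 7 were higher in the lower library, with differences from -1.02 to -2.93 and a median of -1.60, while the other 29 stayed under 1 FPKM in both libraries. Hoxb9 was at 6.65 FPKM in lower, listed at 0 in upper and 35.2 in large. Hoxb6 was at 6.11 in lower, 0.788 in upper and 31.5 in large (lower to upper ratio 7.76, 3.62 to 17.8). A member at a few FPKM that is low elsewhere can be measured only through the library where it is high, so the count over the 7 is no support for a direction of the whole family. Among the members under the filter, Hoxa3 was at 0.648 in lower and 0.107 in upper.

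Nuclear receptors leaned to the upper library, with 4 of 37 higher there, none higher in lower, a median of 0.45 and 33 of 37 above 0. The 4 called make 10.8% of the list, against 3.8% of all measured genes. Nr1i3, the xenobiotic receptor CAR, was at 58.2 FPKM in upper, 7.95 in lower and 3.62 in large (ratio 7.33, 5.96 to 9.07). Its relative Nr1i2, the receptor PXR, was at 48.9 in upper and 35.4 in lower. Pparg was at 12.2 in upper and 3.21 in lower, and the circadian output factors Dbp and Hlf were at 40.5 in upper and 13.7 in lower and at 4.64 in upper and 0.293 in lower. The labels used here give no time of collection, so circadian time could not be compared between the libraries.

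**Figure D2:**
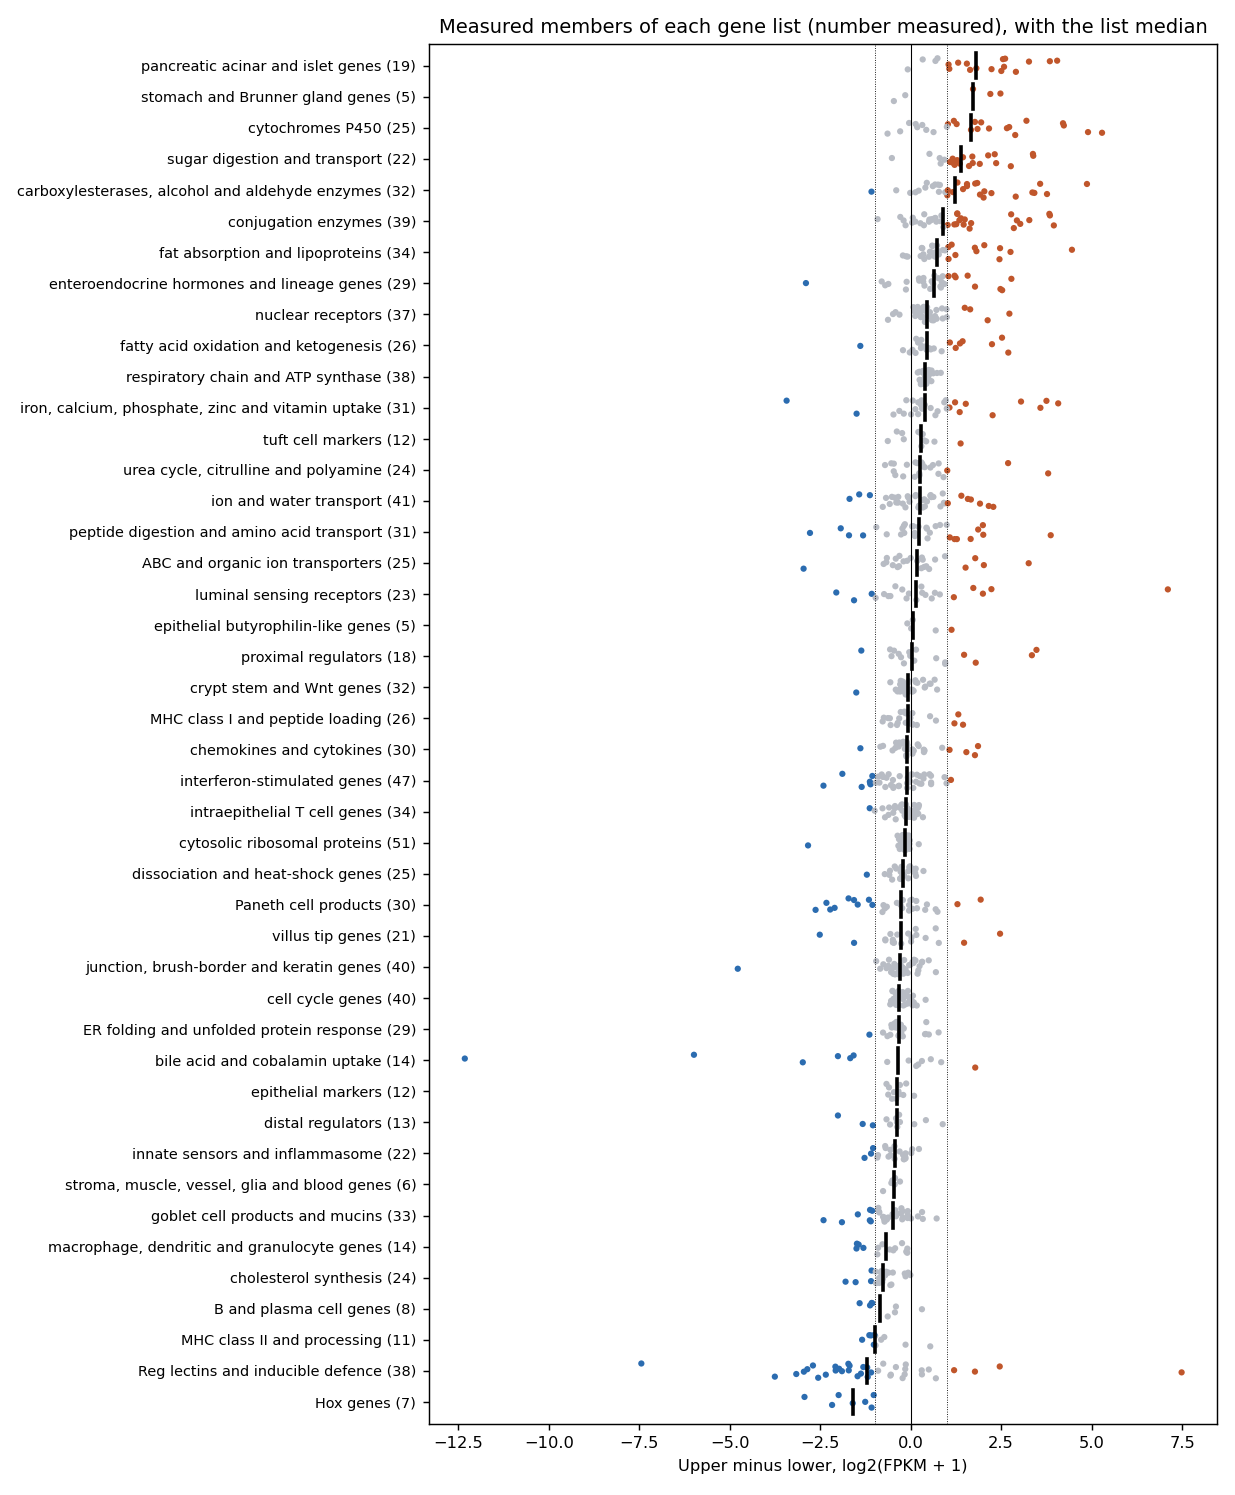
Difference of log2(FPKM + 1), upper minus lower, of every measured member of 44 gene lists (rows, with the number measured), ordered by the list median (black bar); orange points are 2-fold or more higher in upper, blue ones in lower, and dotted lines mark that limit. Xenobiotic, sugar and fat lists lie to the right and the Hox, defence and MHC class II lists to the left. Ribosomal and cell cycle genes lie inside the dotted lines except Rpl26, and most are below 0.

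Sugar digestion and transport was higher in the upper library almost as a block. Of 22 measured members, 17 were higher in upper and none in lower, and the median difference was 1.40 against -0.03 over all genes. Slc2a2, the basolateral exit route for glucose and fructose, was at 168 FPKM in upper, 15.1 in lower and 0.092 in large (ratio 11.1, 9.67 to 12.7). Slc2a7 was at 44.8 in upper and 8.16 in lower, Slc2a5, the apical fructose transporter, at 80.3 in upper and 30.8 in lower, and Slc5a1, the sodium-glucose cotransporter, at 915 in upper and 409 in lower. Among brush-border enzymes the steepest were Lct and Treh, the trehalase, at 238 in upper and 53.1 in lower. Sucrase-isomaltase, Sis, was under 2-fold at 936 in upper and 491 in lower, and maltase-glucoamylase, Mgam, at 876 in upper and 611 in lower. The gluconeogenic enzymes G6pc and Fbp1 were at 24.3 in upper and 2.72 in lower and at 38.1 in upper and 6.61 in lower. Slc2a1, the widespread glucose transporter, was the single member with a negative difference, at 5.94 in upper and 8.96 in lower.

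Protein digestion split between the regions. Of 31 measured peptide and amino acid genes, 8 were higher in upper and 4 in lower, with a median of 0.22. Tmprss15, the enteropeptidase that activates trypsinogen, was at 13.6 FPKM in upper and listed at 0 in both other libraries. Slc7a8, a basolateral exchanger of neutral amino acids, was at 165 in upper and 40.3 in lower, the peptidase Ace at 600.3 in upper and 149.9 in lower, and the peptidase Mme at 246 in upper and 66.7 in lower. On the lower side, Mep1a, a meprin subunit, was at 167 in lower and 42.9 in upper, and its partner Mep1b was near equal at 507 in lower and 447 in upper. Slc6a14, a broad amino acid transporter, was at 6.15 in lower, 0.039 in upper and 382 in large. Naaladl1, a brush-border dipeptidase, was at 755 in lower and 231 in upper, and Slc1a1, the glutamate transporter, at 55.0 in lower and 21.5 in upper. The most abundant peptidase, Anpep, was close at 2250.4 in upper and 2086 in lower, as was the main neutral amino acid transporter Slc6a19 at 249.2 in upper and 237 in lower.

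Fat absorption was upper-biased without exception among called genes, with 11 of 34 members higher in upper, none higher in lower and a median of 0.72. Besides Fabp1, the apolipoproteins led the list. Apoa4 was at 2797 FPKM in upper, 504 in lower and 1.12 in large (ratio 5.55, 5.42 to 5.67). Apoc2 was at 1111 in upper and 202 in lower, and Apoc3 at 835 in upper and 203 in lower, while Apoa1 was under 2-fold at 7061 in upper and 4122 in lower and Apob at 198 in upper and 158 in lower. Cd36, a fatty acid receptor, was at 20.0 in upper and 2.11 in lower. Of the enzymes that rebuild triglyceride, Dgat2 was at 138 in upper and 38.5 in lower and Mttp, which loads lipid onto apolipoprotein B, at 668 in upper and 283 in lower. Dgat1, at 468 in upper and 283 in lower, was under 2-fold. Npc1l1, the sterol entry protein, was at 204 in upper and 168 in lower.

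Bile acid and cobalamin genes separated by function. Of 14 measured members, 6 were higher in lower and 1 in upper, with a median of -0.35. The ileal bile acid circuit was on the lower side: beside Fabp6, Slc10a2 and Nr1h4, the basolateral exporter subunits Slc51a and Slc51b were at 346 and 428 FPKM in lower and 115 and 134 in upper. Fgf15, the hormone that reports bile acid uptake to the liver, was at 7.52 in lower, 0.078 in upper and 0.068 in large, with under 1 implied read in upper. Abcc2, an apical export pump, was the member higher in upper, at 108 in upper and 30.6 in lower. The genes of cobalamin uptake did not follow this pattern at the RNA level: Cubn and Amn, which form the receptor, were at 55.6 and 74.2 in lower and 61.9 and 71.3 in upper. Tcn2, the carrier in blood, was at 119 in lower and 175 in upper.

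Of 31 vitamin and mineral uptake genes, 9 were higher in upper and 2 in lower, with a median of 0.39. S100g, the calcium-binding protein of calcium absorption, was at 188 FPKM in upper, 10.2 in lower and 229 in large, so both ends of the gut exceeded the lower small intestine. Rbp2, the intestinal retinol carrier, was at 4561 in upper and 551 in lower, and Rdh7, a retinol dehydrogenase, at 66.0 in upper and 3.98 in lower. Slc46a1, the proton-coupled folate transporter, was at 66.9 in upper and 4.66 in lower (ratio 14.3, 10.3 to 20.6), and Slc23a1, a vitamin C transporter, at 37.4 in upper and 6.99 in lower. Slc34a2, the apical phosphate transporter, went the other way, at 58.5 in lower, 4.52 in upper and 2.28 in large (lower to upper ratio 12.9, 8.53 to 20.3). Slc52a3, a riboflavin transporter, was the other member higher in lower, at 49.8 in lower and 17.02 in upper. Iron genes were less separated: the ferritin heavy chain Fth1 was at 2511 in upper and 982 in lower, the importer Slc11a2 at 26.9 in upper and 15.7 in lower, and the exporter Slc40a1 at 18.8 in upper and 15.1 in lower.

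**Figure D3:**
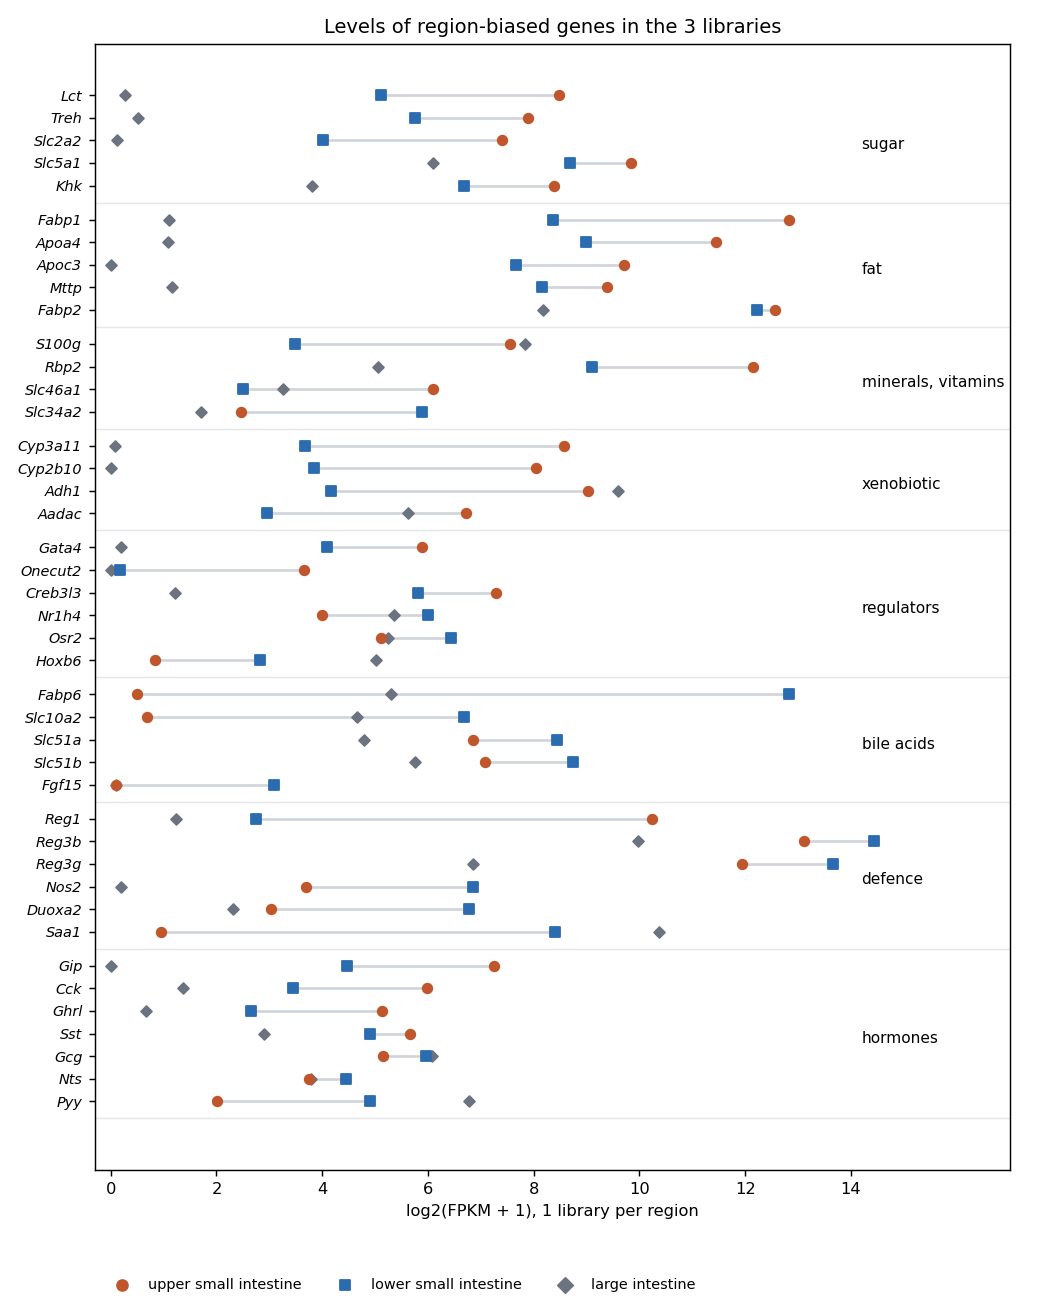
Level of 42 genes in the upper (orange circle), lower (blue square) and large (grey diamond) intestinal library as log2(FPKM + 1), 1 library per region, grouped by role with a line joining the small intestinal libraries. Sugar, fat and xenobiotic genes lie to the right in upper and most bile acid and defence genes to the right in lower, and S100g and Adh1 are higher in large than in upper.

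Xenobiotic metabolism was upper-biased across its enzyme lists. Of 25 measured genes on the cytochrome P450 list, which also holds their reductase Por, 16 were higher in upper and none in lower, with a median of 1.67. Taken by family name instead, 15 of 31 measured P450 genes were higher in upper and 1 in lower, with a smaller median of 0.999. The 1 higher in lower was Cyp51, which stands in the cholesterol synthesis list. Of 39 conjugation enzymes, 19 were higher in upper and none in lower (median 0.90), and of 32 carboxylesterases and alcohol and aldehyde enzymes, 19 in upper and 1 in lower (median 1.23). Cyp2c66 was at 49.6 FPKM in upper and 0.296 in lower, and Cyp2b10, a target of CAR, was at 264 in upper, 13.3 in lower and listed at 0 in large. Cyp3a25 was at 228 in upper and 23.99 in lower, whereas Cyp3a13 was nearer at 257 in upper and 106 in lower. Their reductase Por was at 81.4 in upper and 35.0 in lower. Not every P450 followed: Cyp2s1 was at 33.6 in upper and 34.7 in lower, and Cyp4f40 at 38.6 in upper and 60.7 in lower.

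The glutathione transferases Gsta1 and Gstm3 were at 94.4 and 248 FPKM in upper and 5.15 and 16.3 in lower. Ugt2a3, a glucuronosyltransferase, was at 89.3 in upper and 10.1 in lower. Gpx2, the gastrointestinal glutathione peroxidase, had the lowest difference on the conjugation list, at 361 in upper and 682 in lower (-0.92). Adh1, an alcohol dehydrogenase that also oxidises retinol, was at 524 in upper, 16.9 in lower and 775 in large (upper to lower ratio 30.9, 26.2 to 36.9), and Adh6a was at 629 in upper and 58.0 in lower. Adh5, the formaldehyde-clearing member, was at 50.6 in upper and 31.3 in lower. Aadac, an esterase of the ER, was at 104 in upper and 6.73 in lower. Near-identical members of these families can share reads, so levels of single Cyp, Gst and Ces genes are uncertain.

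Efflux and organic ion transporters did not move as a block, with 4 of 25 higher in upper, 1 higher in lower and a median of 0.18. Slc28a1, a pyrimidine nucleoside transporter, was at 31.8 FPKM in upper and 2.42 in lower, and Slc47a1, a cation exporter, at 27.7 in upper and 6.06 in lower. Slc5a8, a sodium-coupled monocarboxylate transporter of the colon, was at 39.7 in lower, 4.24 in upper and 104 in large. The drug efflux pumps Abcb1a and Abcg2 were under 2-fold in opposite directions, at 119 and 42.8 in upper and 83.3 and 72.5 in lower.

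Of 26 fatty acid oxidation and ketogenesis genes, 7 were higher in upper and 1 in lower, with a median of 0.44. Pdk4, which blocks pyruvate oxidation, was at 8.47 FPKM in upper and 0.647 in lower, and Acaa1b, a peroxisomal thiolase, at 11.1 in upper and 0.863 in lower, while Cpt1a, the gatekeeper of mitochondrial import, was at 43.8 in upper and 50.9 in lower. None of 38 listed respiratory chain and ATP synthase genes reached 2-fold, yet all 38 had positive differences, from 0.20 to 0.83 with a median of 0.40. Ndufs5, a respiratory chain gene outside this list, was called higher in lower, at 12.6 in lower and 0.005 in upper. That value is uncertain, as given below. Cytosolic ribosomal proteins gave the reverse picture, with 50 of 51 below 0 and a median of -0.16. The 24 cholesterol synthesis genes all had negative differences, with a median of -0.78 and 4 called higher in lower. Sqle, which epoxidises squalene, was at 92.0 in lower and 31.4 in upper (lower to upper ratio 2.93, 2.58 to 3.34) and Hmgcs1 at 169 in lower and 78.5 in upper. The other 20 members lay between -0.97 and -0.01. Of 24 urea cycle, citrulline and polyamine genes, 3 were higher in upper, among them the arginase Arg2 at 347 in upper and 52.9 in lower and the creatine kinase Ckb at 315 in upper and 21.7 in lower, while Cps1 and Otc, which make citrulline, were at 319.7 and 104 in upper and 254 and 82.9 in lower.

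Ion and water transport was mixed, with 7 of 41 higher in upper and 3 in lower. The guanylins, peptides that regulate salt and water secretion through Gucy2c, were opposed: Guca2b, uroguanylin, was at 1653 FPKM in upper, 522 in lower and 26.7 in large, and Guca2a, guanylin, at 249.2 in upper, 806 in lower and 2063 in large. Their receptor Gucy2c was close at 114 in upper and 89.6 in lower. Slc9a3, the apical sodium-proton exchanger, was at 34.1 in upper and 8.32 in lower and Car2, a carbonic anhydrase, at 21.97 in upper and 3.72 in lower. The chloride channel Cftr was at 44.1 in upper and 32.1 in lower.

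Inducible defence genes held many of those higher in the lower library. Of 38 measured Reg lectin and inducible defence genes, 21 were higher in lower and 4 in upper, with a median of -1.20. Reg3b and Reg3g, bactericidal C-type lectins, were at 22050 and 12929 FPKM in lower and 8893 and 3945 in upper, and together made up 5.82% of the summed FPKM of the lower library and 2.10% of the upper, short RNA names left out. Saa1, an acute-phase protein induced by bacteria, was at 337 in lower, 0.944 in upper and 1328 in large (lower to upper ratio 357, 147 to 1390). The oxidase Duox2 and its maturation factor Duoxa2 were at 92.1 and 109 in lower and 11.03 and 7.16 in upper. Nos2, the inducible nitric oxide synthase, was at 114 in lower, 11.9 in upper and 0.144 in large. Ubd, a ubiquitin-like modifier induced by interferon, was at 139.7 in lower and 26.7 in upper.

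Reg1 was the gene with the largest positive difference of all, at 1199 FPKM in upper, 5.69 in lower and 1.36 in large (ratio 211, 159.5 to 289). Pancreatic acinar cells also make Reg1, and 12 acinar genes listed at 0 in lower were at up to 15.5 FPKM in upper, as given with the markers of other cells. Their part in the Reg1 level was not tested. The Reg family was split: Reg1, Reg2 and Reg4 were higher in upper, Reg3b, Reg3d and Reg3g in lower, and Reg3a, at 95.2 in upper and 58.4 in lower, was under 2-fold. The gasdermins Gsdmc2, Gsdmc3 and Gsdmc4 were at 52.2, 19.4 and 49.8 in lower and 8.05, 2.14 and 11.9 in upper, while Gsdmd, the executor of pyroptosis, was at 118 in lower and 167 in upper. Il18, an epithelial cytokine, was at 131 in upper and 37.7 in lower. In the lower library some markers of other cells were also higher, for example the B cell gene Cd79a at 2.55 in lower against 0.336 in upper. The macrophage gene C1qa was at 4.42 in lower against 1.87 in upper. Over whole lists, 7 of 8 measured B and plasma cell genes and all 14 macrophage, dendritic and granulocyte genes had negative differences, and their part in the defence genes was not tested. In bulk RNA, fewer cells of a type and less RNA per cell cannot be told apart.

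Paneth cell products were abundant in both libraries and differed mainly within the alpha-defensins. The list made up 9.87% of the summed FPKM in lower and 9.23% in upper, with 9 of 30 measured members higher in lower and 2 in upper. Lyz1, the Paneth lysozyme, was at 4824 FPKM in lower and 4151 in upper, and Defa24, a cryptdin, at 9947 in lower and 10287 in upper. Defa21 and Defa22 were at 4021 and 3952 in lower and 800 and 845 in upper, whereas the defensin-like gene AY761184 was at 4492 in upper and 1834 in lower. Alpha-defensins are near-identical in sequence, so reads can be split between copies and single values are uncertain. Rnase1, a secreted ribonuclease, was at 30.6 in upper and 7.28 in lower.

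Goblet cell genes leaned to the lower library, with 7 of 33 higher in lower, none in upper, and a median of -0.50. Muc2, the gel-forming mucin, was at 329.6 FPKM in lower, 151 in upper and 1128 in large (lower to upper ratio 2.19, 1.90 to 2.52). Agr2, needed for mucin folding, was at 1082 in lower and 494 in upper. Fut2, the fucosyltransferase of secreted glycans, was at 6.98 in lower and 0.502 in upper. About 1 read was implied for Fut2 in upper on its shortest transcript of 357 nt. Tff3 and Fcgbp, which are also secreted by goblet cells, were close, at 2215 and 641 in lower and 1835 and 603 in upper.

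Hormone genes differed by hormone. Of 29 enteroendocrine genes, 8 were higher in upper and 1 in lower, with a median of 0.65. Gip, the glucose-dependent insulinotropic peptide, was at 151 FPKM in upper, 21.2 in lower and listed at 0 in large (upper to lower ratio 7.16, 5.94 to 8.63). Cck, cholecystokinin, was at 62.2 in upper and 9.95 in lower, and Ghrl, ghrelin, at 34.0 in upper and 5.28 in lower. Pyy, peptide YY, was the member higher in lower, at 28.9 in lower, 3.02 in upper and 108 in large (lower to upper ratio 9.57, 4.90 to 23.7). Gcg and Nts lay on the same side under 2-fold, at 61.2 and 20.8 in lower and 34.7 and 12.4 in upper. Sst and Sct were at 49.8 and 97.5 in upper and 28.8 and 54.2 in lower, Tac1 at 9.27 in upper and 14.8 in lower, and Iapp was near equal at 2.32 in upper and 2.59 in lower. The general granule gene Chgb was at 103 in upper and 33.8 in lower, and Chga at 53.7 in upper and 29.2 in lower.

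Among luminal sensing genes, 5 of 23 were higher in upper and 3 in lower. Akp3, an intestinal alkaline phosphatase, was at 286 FPKM in upper, 1.08 in lower and 0.074 in large (upper to lower ratio 264, 168 to 436), and its neighbour Alpi was at 613 in upper and 153 in lower. Adora2b, an adenosine receptor, was at 10.2 in upper and 1.39 in lower. Ffar4, a receptor of long-chain fatty acids, was at 6.24 in lower and 0.741 in upper. Tuft cell markers were low in both libraries, with Trpm5 at 1.68 in upper and 1.19 in lower and Ltc4s, of leukotriene synthesis, the 1 of 12 members called higher in upper, at 7.93 in upper and 2.43 in lower.

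Genes of renewal were mostly within 2-fold, as were most measured genes, of which 6.42% were called. Of 32 crypt stem and Wnt genes, 1 was called: Ccnd1, cyclin D1, at 99.1 FPKM in lower and 34.3 in upper. Lgr5, the stem cell receptor, was at 5.02 in lower and 3.68 in upper, and Olfm4, a stem cell marker of the small intestine, was at 579 in upper and 396 in lower. None of 40 cell cycle genes was called, and their differences ran from -0.57 to 0.41 with a median of -0.31. They leaned to the lower library, with 32 of 40 below 0, while the median over all measured genes was -0.03. Villus tip genes were mixed, with 2 of 21 higher on each side. Of 40 junction, brush-border and keratin genes, 1 was called: Tmigd1, an adhesion protein of the brush border, at 258 in lower, 8.45 in upper and 50.9 in large (lower to upper ratio 30.6, 21.5 to 44.7). Vil1, the actin bundler of microvilli, was at 974 in upper and 913 in lower.

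Antigen presentation by MHC class II was lower-biased, and class I was not. Of 11 class II genes, 5 were higher in lower and none in upper, with a median of -0.98. H2-Aa was at 615 FPKM in lower and 242 in upper (lower to upper ratio 2.54, 2.38 to 2.71), Cd74, the invariant chain, at 1453 in lower and 716 in upper, and Ciita, the class II transactivator, at 18.03 in lower and 7.62 in upper. Of 26 class I genes, 3 were higher in upper, among them H2-Q1 at 213 in upper and 84.9 in lower, and the core genes were close, with B2m at 1960.1 in upper and 1898 in lower. Of 47 interferon-stimulated genes, 7 were higher in lower (14.9%, against 2.62% of all measured genes) and 1 in upper, with a median of -0.10. The 7 included Iigp1, a resistance GTPase, at 8.47 in lower and 0.781 in upper, and Gbp2 at 11.6 in lower and 2.40 in upper. Innate sensors gave 3 of 22 higher in lower (13.6%, against 2.62% of all measured genes). Among them was Tlr2, at 4.63 in lower and 1.33 in upper. Of 30 chemokines and cytokines, 4 were higher in upper and 1 in lower, with the alarmin Il33 at 14.3 in upper and 4.26 in lower. B cells and macrophages also express class II genes, and some of their markers were higher in the lower library. Itgam was at 11.8 in lower and 3.56 in upper, and Ms4a1, under the 1 FPKM filter in both, at 0.455 in lower and 0.136 in upper. The macrophage gene Adgre1, also under the filter, was nearer, at 0.664 in lower and 0.578 in upper. The plasma cell gene Jchain went the other way, at 22.5 in lower and 28.1 in upper. The part of these cells in the class II result was not tested.

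Intraepithelial T cell genes were at much the same level, with 1 of 34 called, the helper T cell gene Cd4 at 2.24 FPKM in lower and 0.478 in upper. On the shortest Cd4 transcript, of 273 nt, these values implied about 7 reads in lower and 1 in upper. The interval of the lower to upper ratio, 0.608 to 213, then included equality. A longer transcript would mean more reads and a narrower interval. Cd3e was at 13.8 in lower and 14.8 in upper and Cd8a at 15.9 in lower and 17.4 in upper. The epithelial butyrophilin-like genes Btnl4 and Btnl6 were near equal, at 75.6 and 245 in upper and 75.003 and 236 in lower, and Btnl2 was at 97.6 in upper and 44.1 in lower.

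The epithelial label was borne out in both libraries, with Epcam at 666 FPKM in upper and 879 in lower and all 12 epithelial markers measured and none called. Muscle genes Myh11 and Des and the endothelial Cdh5 were at 0 to 0.088 FPKM. Other such genes were detected, with the endothelial Pecam1 at 1.37 in lower and 0.93 in upper. Vim was at 10.3 in lower and 6.79 in upper, and the blood gene Hba-a1 at 13.4 in lower and 7.46 in upper. None of 6 measured stroma, muscle, vessel, glia and blood genes was called, but all 6 had negative differences, with a median of -0.48. Of 25 dissociation and heat-shock genes and of 29 genes of ER folding, 1 each was higher in lower, Egr2 at 10.9 in lower against 4.14 in upper and Chac1 at 2.22 in lower against 0.461 in upper. Digestive enzymes of the pancreas, with some stomach genes, stood apart on the upper side. Of 19 measured members of the acinar and islet list, 15 were higher in upper and none in lower. These included 12 listed at 0 in the lower library and at 1.09 to 15.5 FPKM in the upper. The 12 were measured only through the upper library, so the count of 15 is no support for a direction of the list. Ctrb1, chymotrypsinogen, was at 15.5 in upper, Cela2a, an elastase, at 13.4 and Pnlip, the pancreatic lipase, at 8.63. Summed, these 12 genes came to 72.4 FPKM in the upper library. Of 5 measured stomach and Brunner gland genes, 3 were higher in upper and none in lower. Among them, Gkn3 was at 5.58 in upper and 0.431 in lower, and Cym at 2.57 in upper and 0.082 in lower. The other called member was the hormone gene Ghrl, which also stands in the enteroendocrine list. Gkn3 and Cym were likewise measured only through the upper library. The stomach gene Gkn1 was listed at 0 in all libraries. The Brunner gland genes Muc6 and Tff2 were under 1 FPKM in all libraries, at 0.047 and 0.346 in upper. The part of carried-over pancreatic RNA in genes that pancreas and intestine share, such as Pdx1, was not tested. Y-linked genes were present in all libraries, with Eif2s3y at 44.7 in upper and 46.6 in lower.

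Some called genes were neighbours of the same family. Among 11396 measured genes placed by GENCODE M21 on GRCm38 (mm10), of which 731 were called, 18 runs of 3 or more adjacent measured genes were called in 1 direction, 12 in upper and 6 in lower, with 70 genes in all. The longest was the Hoxb cluster, 9 genes at chr11:96251105-96347930, all higher in lower. On the upper side stood 6 Gstm genes at chr3:107926334-108044894, 5 Cyp2c genes at chr19:39007019-39741054 and 4 Ces1 genes at chr8:93166068-93337308. The fructose transporters Slc2a5 and Slc2a7 lay in a run with Gpr157 and Eno1. Another upper run held Prss2, a member of the pancreatic list, with 2210010C04Rik, Try4 and Try5. Prss2, listed at 0 in lower, and Hoxb8 and Hoxb9, listed at 0 in upper, were measured only through the library where they were high. The count of runs with such members is therefore no support for a direction. Shorter runs on the lower side were the Saa genes at chr7:46711998-46754313, the Gsdmc genes at chr15:63824346-63912297 and Bex4, Tceal8 and Bex1 on the X chromosome. Members of a run can share reads, and overlapping or antisense neighbours such as Hoxb5os cannot be told apart where counting ignored strand (the setting is not given in the sources used here).

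**Figure D4:**
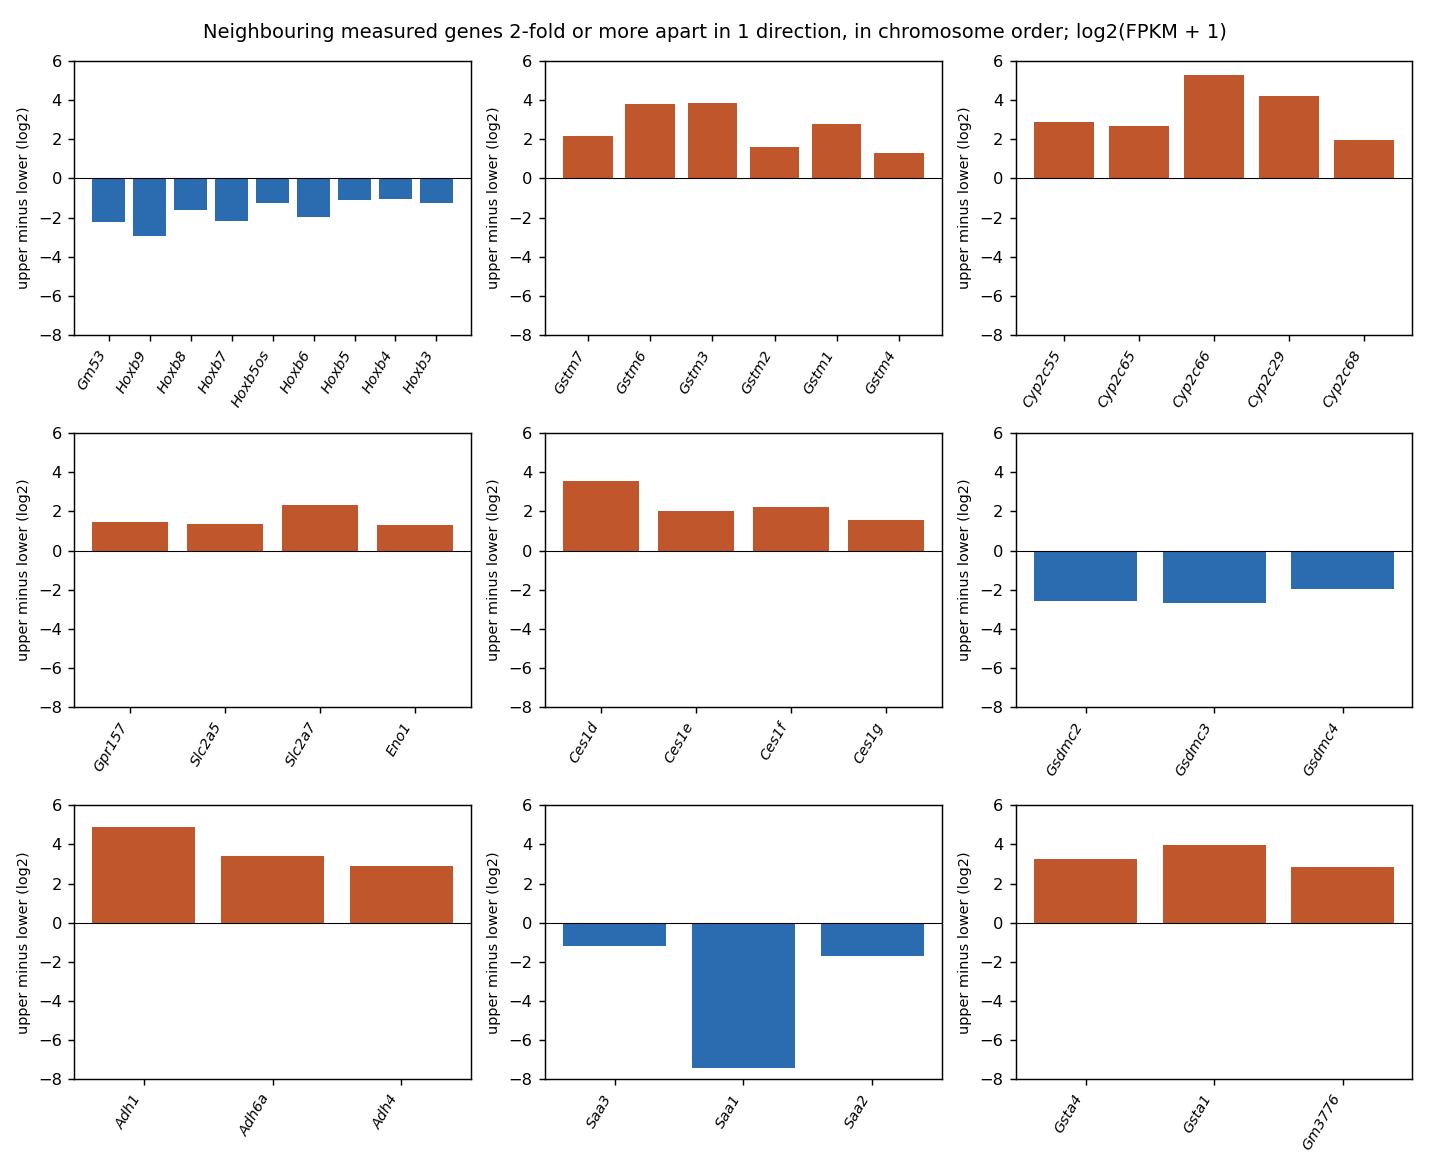
Difference of log2(FPKM + 1), upper minus lower, for the genes of 9 runs of adjacent measured genes in chromosome order; bars above 0 (orange) are higher in upper and bars below 0 (blue) in lower. By the rule that defines a run, every gene lies at 1 or more from 0 on the same side. The Hoxb run lies between -1.02 and -2.93 and the Cyp2c run between 1.95 and 5.29.

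By family name, 35 of 234 measured solute carriers were higher in upper and 13 in lower. Glutathione transferases gave 10 of 18 in upper and none in lower, and Ugt genes 6 of 9 and none. Cytochromes P450 gave 15 of 31 in upper and 1 in lower. Families without a called member included the Zfp zinc fingers (252 genes) and proteasome subunits (47). In 2 pairs of near-identical genes the sum stayed level while the parts swapped. Atp6v0c was at 191 FPKM in upper and 23.4 in lower and its copy Atp6v0c-ps2 at 0.272 in upper and 173 in lower, with sums of 191 in upper and 196 in lower. Rps27 and its copy Rps27rt were at 1462 and 268 in upper and 350.3 and 1641 in lower, with sums of 1730 in upper and 1992 in lower. These calls are uncertain, as are Rpl26, listed at 0 in upper and large and at 6.14 in lower, and Ndufs5, at 0.005 in upper and large and 12.6 in lower. Both are housekeeping genes, so a level at 0 can be a failed estimate. Calls were also commoner among genes with short transcripts, 9.95% of the 3808 genes with the shortest transcripts, against 5.55% of 3804 of middle length and 3.70% of the 3806 longest, with median differences of -0.01, -0.03 and -0.04. At the filter itself, Fkbp14 at 1 FPKM in lower and 0.515 in upper was measured, and Nlgn2 at 0.999 in lower and 0.523 in upper was not.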

How the data were processed

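RNA sequencing libraries of large, lower and upper intestinal epithelium (1 each; TruSeq stranded mRNA kit, per the labels' protocols) were deposited as 1 value per gene. The deposited values were taken as FPKM; the file headers name no unit. Cufflinks 2.2.1, TopHat2 2.0.13, Bowtie2 2.2.3, SAMtools 0.1.19 and mm10 are named per the submitters' processing notes, without roles. For the annotation, strand setting and any scaling between libraries, details were not given in the sources used here.

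Differences were upper minus lower of log2(FPKM + 1), a pseudocount of 1, in genes at 1 FPKM or more in either library; short RNA names were set aside and 2-fold or more was called by size. No test was possible with 1 library a side. Implied reads came from the spacing of low FPKM times length in genes with a transcript of at least 1500 nt. Steps of 0.092 (lower) and 0.136 (upper) FPKM per read and kb placed 69.3% of 456 and 68.7% of 453 genes within 0.15 read of a whole number, too few for a count test. Intervals used the shortest GENCODE M21 transcript and cover counting error only, since reads without molecular identifiers need not be separate molecules. The scripts were tested on simulated data (Python 3.11.15, numpy 2.4.6, scipy 1.17.1, pandas 2.3.3).

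Genes named were all measured regulators, bile acid, cobalamin and hormone genes, up to 6 members with the largest difference of each other list, the 15 largest per direction at 10 FPKM or more, and relatives in a family. Members named beyond this were chosen after their values were seen. Some genes stand in more than 1 list, and a few results are not reported here. The members and the 45 lists were chosen with earlier results of these data known. Alternatives were the pseudocount, the filter, 4 scalings, the short RNA names, the 2-fold limit and the counting interval. Promoter windows came from RefSeq (GRCm38.p6).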

Additional observations from a re-analysis of the deposited data

Results flagged for a closer look

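Names of short RNA classes were left out of the comparison, and 8 of those at 1000 FPKM or more in upper or lower differed by 1 or more on the log2 scale between the 2 libraries. Poly(A)-selected libraries are not made to capture such RNAs, FPKM of very short features is inflated by the division by length, and their values were not used for any comparison. In the upper library Mir1892 was at 49507 FPKM, Mir762 at 16403, Mir677 at 3854 and Mir678 at 1000.4. In the lower library Snord96a was at 3638, Mir6973a at 2581, Snord33 at 1919.99 and Mir5107 at 1866. Mir762 was listed at 0 in lower, while Mir1892 was also high there, at 20219. Short names together made up 11.99% of the summed FPKM in upper and 7.02% in lower.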

How the results depend on the processing

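Counts of genes higher in upper and in lower were recomputed under each alternative. With 3-fold in place of 2-fold they were 200 and 111, and with a pseudocount of 0.1 the lower count was 498 (upper 618). The other settings stayed within 1.5 times of the 451 and 311 reported. Rescaling to the same sum over all names gave 398 and 353, shifted the median of all genes to -0.12 and moved the upper share of called genes from 59.2% to 53.0%. Of 177 named genes that were called, none of those still measured changed sign under 8 settings of pseudocount, filter or scaling. A pseudocount or a filter cannot change the sign of a difference. The scalings left the median of all genes between -0.12 and -0.02, far inside the 2-fold limit of a call. The unchanged signs are therefore no support for the calls. The 5 FPKM filter left 23 of the 177 genes unmeasured and rescaling to the same sum 1, and 1 call each was lost under that rescaling and under median-ratio scaling. List medians near 0 changed sign under some settings for proximal regulators, luminal sensing, ABC and organic ion transporters, butyrophilin-like and intraepithelial T cell genes. Of 731 called genes with implied reads, 55 had a counting interval that included equality. Reads were reckoned on the shortest transcript, so 55 can overstate this number. No paired analysis was possible because each region has 1 library, and for the same reason no library could be left out. Depth limits ratios of low genes, and differences between animals are unknown.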

Other observations

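Several genes of sulfur and pyrimidine handling were singled out after their values were seen, so they stand for themselves and not for a group. Papss2, which makes the activated sulfate used by sulfotransferases, was at 453 FPKM in upper, 37.2 in lower and 234 in large (upper to lower ratio 12.2, 11.3 to 13.1), and Bpnt1, which clears its by-product, was at 387 in upper and 115 in lower. Suox, the sulfite oxidase, went the other way, at 118 in lower, 4.28 in upper and 6.16 in large (lower to upper ratio 27.5, 21.9 to 34.6). Mpst, a sulfurtransferase, was at 45.0 in lower and 17.1 in upper, while the sulfide oxidase Sqrdl was near equal at 51.3 in lower and 52.7 in upper. Among enzymes that break down pyrimidine nucleosides, Tymp and Cda were at 55.5 and 224 in upper and 4.82 and 52.3 in lower, and Upp1, uridine phosphorylase, was at 423 in lower and 132 in upper.

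Other genes singled out in the same way follow. Plb1, a brush-border phospholipase, was at 163 FPKM in lower, 8.89 in upper and 0.391 in large (lower to upper ratio 18.4, 12.6 to 27.4). Scd2, a fatty acid desaturase, was at 118 in lower and 22.4 in upper, and the lysophospholipid acyltransferases Lpcat4 and Mboat1 were at 21.98 and 15.4 in lower and 3.11 and 2.25 in upper. Mgat4c, a glycosyltransferase, was at 76.7 in lower, 3.25 in upper and 124 in large. On the upper side Leap2, a peptide that blocks the ghrelin receptor, was at 271 in upper and 30.8 in lower, and Bbox1, of carnitine synthesis, at 16.7 in upper and 0.178 in lower. The unnamed gene model Gm766 was at 130.9 in upper, 0.531 in lower and listed at 0 in large.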
